A study of Mus musculus with 9 samples.

Results

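Apoe, Apoc1, Apoc2, Fabp5, Lpl, Npc2, Abca1, Abcg1 and Lipa are 9 genes that move cholesterol and fatty acids into, through and out of cells, and they were followed in myeloid cells sorted from degenerating mouse retinas. They were chosen by symbol among the 27998 genes of the deposited tables, and all 9 symbols were found. The cells were CD45+ CD11b+ cells from the retinas of female Arr1-/- mice. These animals lack visual arrestin, were bred and kept in constant darkness, and lose their photoreceptors once they are placed in constant light. The 3 groups were mice that stayed in the dark (day 0), mice given 7 days of constant room light and mice given 20 days of it, and all of them carried the same knockout. Sag, the gene of visual arrestin, had at most 2 unique molecular identifiers (UMIs, one per captured transcript) in any library, and no group with intact arrestin is used here. Each day had 3 libraries of droplet-captured 3′ transcript ends. The study counts retinas and mice without tying them to libraries, so a p-value here measures the spread between libraries only, and that spread may be technical. The mice were young adults of a few months of age.

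The 9 libraries shared cell barcodes: 612 of their 1365 different barcodes were listed in more than 1 library and 270 in all 9. A barcode was therefore used in 1 library alone, that of its highest UMI total. Of the 851 barcodes that then passed quality control, 738 were myeloid cells by their markers, 255 at day 0, 285 at day 7 and 198 at day 20. All 20 genes of the myeloid marker list were detected, and together they made up 49417 to 72396 CPM (UMIs of a gene scaled to the same total in every library) in the 9 libraries. The cells of a library numbered 17 to 194 and held 20443 to 277725 UMIs, with a median of 633 to 1089.5 UMIs a cell. Day 7 replicate 3, with 17 cells, was the smallest library and its values are the least precise.

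Apolipoprotein E is the main lipid carrier that microglia and glia of the nervous system secrete, and apolipoproteins C-I and C-II travel on the same particles, where C-II activates lipoprotein lipase, the product of Lpl. The transporters Abca1 and Abcg1 load cholesterol onto such particles. Inside the cell, lysosomal acid lipase, made from Lipa, releases cholesterol from lipoproteins and debris, Npc2 hands that cholesterol on within the lysosome, and Fabp5 carries fatty acids through the cytoplasm. Macrophages that clear lipid-rich debris switch on several of these genes through the oxysterol-sensing LXR receptors. Photoreceptor outer segments are stacks of membrane and a large source of such lipid in the retina.

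Apoe, Apoc1 and Apoc2 lie in 1 gene cluster on the minus strand of chromosome 7 (GRCm38, GENCODE M21 annotation). Apoc2 (ENSMUSG00000002992) spans 19671579 to 19677941, Apoc1 (ENSMUSG00000040564) 19689481 to 19692660 and Apoe (ENSMUSG00000002985) 19696109 to 19699188, so 3448 bases separate the last pair. Abca1 and Apoe are textbook LXR targets, and the bases before their transcription starts are shown because only one of them holds an LXR-type repeat in this window. Both are from RefSeq (GRCm38.p6) and read 5′ to 3′ on the minus strand, Apoe at chr7:19699189-19699438 and Abca1 at chr4:53159896-53160145.
Apoe: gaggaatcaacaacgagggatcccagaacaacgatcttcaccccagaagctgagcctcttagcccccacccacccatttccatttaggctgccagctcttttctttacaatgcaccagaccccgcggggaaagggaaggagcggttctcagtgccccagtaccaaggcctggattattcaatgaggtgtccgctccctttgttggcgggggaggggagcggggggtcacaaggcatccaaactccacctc
Abca1: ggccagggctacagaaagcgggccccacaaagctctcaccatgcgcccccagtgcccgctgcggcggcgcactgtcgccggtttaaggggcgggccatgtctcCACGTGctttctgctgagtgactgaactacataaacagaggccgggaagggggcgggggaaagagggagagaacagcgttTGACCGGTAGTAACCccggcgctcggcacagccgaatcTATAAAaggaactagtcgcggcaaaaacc
Capitals mark matches to the searched motifs. In Abca1 these are, in order, the E-box core CACGTG at bases -147 to -142 from the start, an LXR-type direct repeat spelled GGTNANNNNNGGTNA, here on the opposite strand at -67 to -53, and the TATA box core TATAAA at -29 to -24. Neither these motifs nor the PU.1 site GAGGAAGT matched in the printed Apoe window on either strand. Further RefSeq promoters of Apoe lie downstream and are not printed. The one at chr7:19698622-19698871 held the TATA box core on both strands, at -100 to -95 and -96 to -91, and no other searched motif. The one at chr7:19698399-19698648 held no match. Of 32851 promoter windows, 0.718% held the repeat, 7.15% the E-box, 13.6% the TATA box and 3.20% the PU.1 site on either strand. RefSeq promoters were also at hand for Apoc2, Npc2 and Lipa but not for Apoc1, Fabp5, Lpl and Abcg1. A match is a run of letters, not a tested site.

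After light, Apoe rose and took 3.54% to 12.5% of all UMIs of a library, against 0.264% to 0.853% in the dark. In the dark it stood at 8534, 2644 and 7051 CPM in replicates 1 to 3. After 7 days of light it stood at 75510, 89567 and 124590 CPM, and after 20 days at 47302, 35447 and 90451 CPM. Every library after light lay above every library of day 0, while the libraries of days 7 and 20 overlapped. Of the 1451 genes tested, 15.2% likewise had no overlap between the dark libraries and all those after light. The means (± SD, n = 3 libraries a day) were 6076 ± 3064 CPM in the dark, 96556 ± 25276 after 7 days and 57733 ± 28948 after 20 days. On the log2 scale Apoe rose by 4.07 at day 7 (standard error 0.44, adjusted p = 1.49e-05 from edgeR) and by 3.21 at day 20 (standard error 0.42, adjusted p = 0.000686 from edgeR), each against day 0. The change from day 7 to day 20, -0.86 (standard error 0.39, adjusted p = 0.277 from edgeR), did not pass. Both rises passed in each of the 9 fits that left out 1 library. In summed counts, fewer cells of a type and less RNA per cell cannot be told apart.

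**Figure D1:**
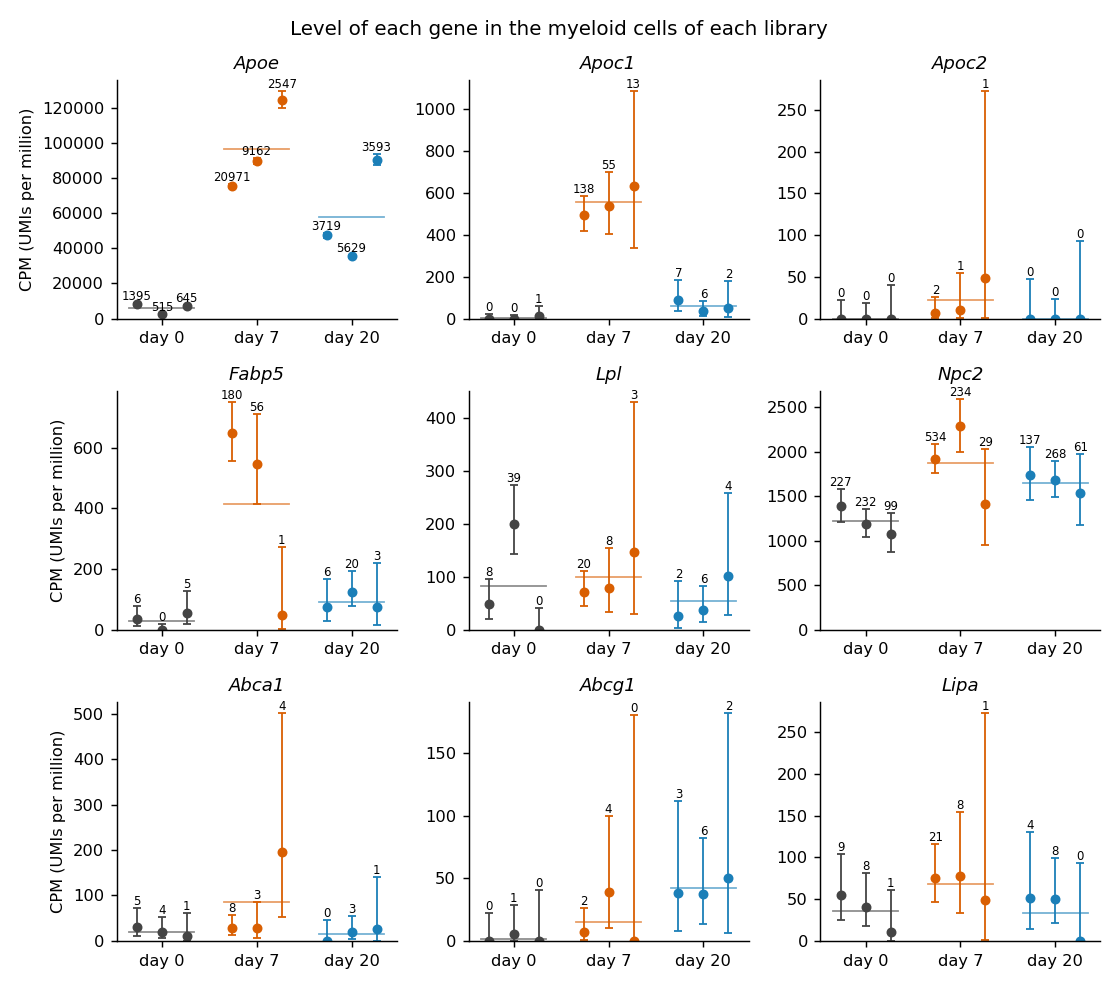
Level of each of the 9 genes in CPM (vertical axis, linear and from 0, a separate scale for each gene) in the 3 libraries of day 0 (grey), day 7 (orange) and day 20 (blue); bars are 95% Poisson intervals of the count, the number above each bar is the UMI count, and horizontal lines are the means of a day. Apoe runs from 2644 CPM in the lowest dark library to 124590 CPM in the highest library after light, and Apoc1 has 1 UMI in all dark libraries together.

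The 9 genes fared very differently in depth, and 5 of them, Apoe, Apoc1, Fabp5, Lpl and Npc2, had enough counts to be tested among the 1451 genes of the fit. Apoc2, Abca1, Abcg1 and Lipa had 4 to 60 UMIs in all 738 cells and were left to their counts. At day 7 against day 0, 4 of the 5 passed the threshold and all 4 were higher, where 24.7% of all tested genes passed in either direction and 8.82% passed as higher. At day 20 against day 0, 2 of the 5 passed (Apoe and Apoc1), where 3.58% of all genes did and 1.1% were higher. Between days 7 and 20, 2 of the 5 passed (Apoc1 and Fabp5, both lower at day 20), where 4.41% of all genes did and 1.17% were lower. For the mean of days 7 and 20 against day 0, 3 of the 5 passed, where 18.7% of all genes did and 4.14% were higher. Of all calls at day 7, 35.7% were increases, and with scaling by library size alone 24.3% were, since that scaling moved the median change of all genes from -0.08 to -0.19. Between days 7 and 20 the same scaling moved the share of increases from 73.4% to 84.7% and the median from -0.00 to 0.15. At day 20 against day 0, leaving the 9 members out of the library sizes moved the share of increases from 30.8% to 43.2%. None of the calls on Apoe, Apoc1 and Fabp5 changed sign under either scaling or with the members left out of the library sizes.

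**Figure D2:**
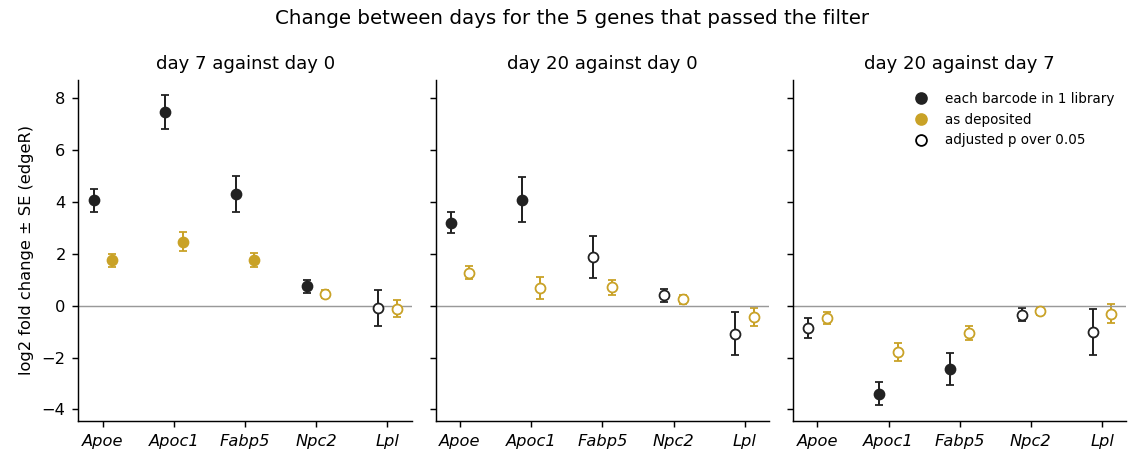
Log2 fold change (edgeR) with a standard error derived from its F statistic for the 5 tested genes, at day 7 against day 0, day 20 against day 0 and day 20 against day 7. Black points use each barcode in 1 library only, yellow points use the libraries as deposited, and open points have an adjusted p over 0.05. Apoe at day 7 is 4.07 in the former counts and 1.75 in the latter.

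The rise in Apoe was also seen cell by cell. Among cells with 500 or more UMIs, the median cell devoted 0.160%, 0.111% and 0.153% of its UMIs to Apoe in the day 0 libraries. The medians were 6.11%, 8.59% and 11.1% at day 7 and 3.39%, 1.50% and 5.76% at day 20. The highest single cell reached 31.0% at day 0, 34.1% at day 7 and 29.0% at day 20, so single cells with such shares occurred on every day. Cells with 5% or more of their UMIs from Apoe made up 6.21% ± 2.61 of a dark library, 70.3% ± 11.3 after 7 days and 42.8% ± 13.3 after 20 days (± SD, n = 3 libraries). This share was 50.3 percentage points higher after light (two-sided exact permutation test with 84 splits, p = 0.0119, the smallest the design allows). Cells with under 1% went the other way, from 88.6% ± 4.89 to 0.878% ± 0.776 and 21.8% ± 12.5, and fell by 77.2 points (exact permutation p = 0.0119). The library medians were on average 5.93 points higher after light (exact permutation p = 0.0357). At day 20, 18.8%, 35.5% and 11.1% of the cells of the 3 libraries were under 1%, against 0% to 1.47% at day 7. Barcodes led by rod markers, used below to gauge background, held at most 0.540% Apoe at day 0. Those of day 7 held at least 1.31%, and those of day 20 held 0.505% to 1.37%. With 500 or more UMIs, all rod-led barcodes of day 7 came from replicate 1, and those of day 20 from replicates 1 and 2. They thus give no background for replicate 3 of either day. The 1% limit thus also separates background by day, and the part of background in the shares under 1% was not tested. The difference between days 7 and 20 in the share at or over 5% was -27.5 points, with an exact permutation p of 0.1, the smallest that 3 libraries against 3 can give.

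**Figure D3:**
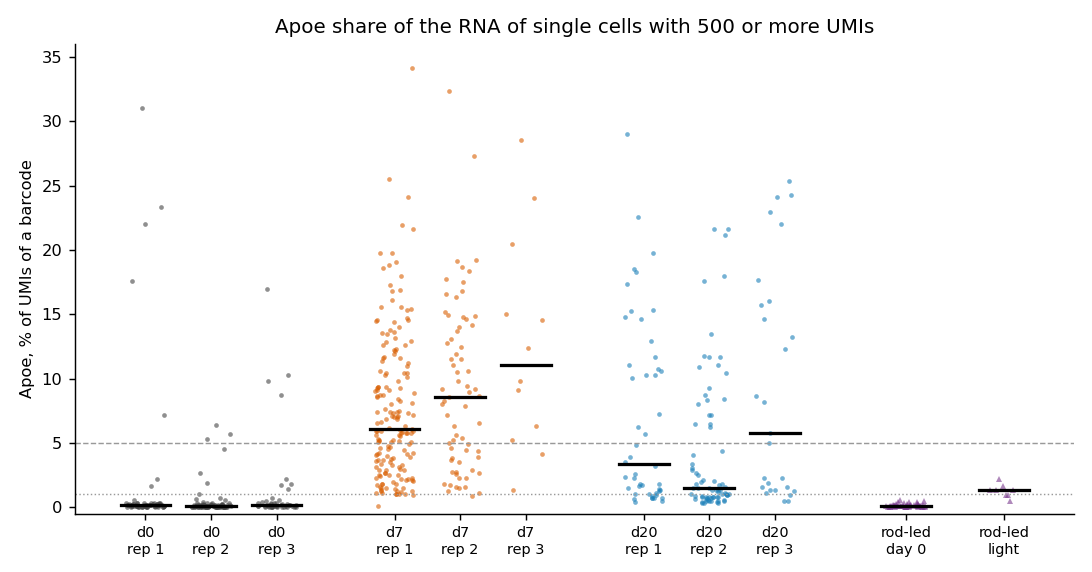
Percent of a barcode's UMIs that were Apoe (vertical axis, linear) for each myeloid cell with 500 or more UMIs in the 9 libraries (circles), and for barcodes led by rod markers that were not counted as myeloid cells (triangles); bars are medians, the dashed line is at 5% and the dotted line at 1%. Medians of the dark libraries lie at 0.111% to 0.160% and those of the day 7 libraries at 6.11% to 11.1%.

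A few cells held most of the Apoe UMIs in the dark. The 12 of 210 day 0 cells at or over 5% held 62.5% of that day's Apoe UMIs in these cells, and 153 of the other 198 cells had at least 1 such UMI and held the remaining 37.5%. Their RNA was 2.05% MHC class II transcripts (the MHCII list, the antigen presentation genes of professional presenting cells), against 0.0535% in the other 198 cells, although 7 of the 12 had such a UMI at all. Markers of homeostatic microglia made up 0.301% of their UMIs, against 0.774% in the others. Perivascular macrophage markers were at 0 in the 12 cells and at 10 UMIs (0.00239%) in the other 198, too few to tell the groups apart. Müller glia and astrocyte markers, cells that also make much Apoe, made up 0.0334% of the UMIs of the 12 cells against 0.122% in the others. The 12 cells were picked by their Apoe share, so these are descriptions without a test.

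Rod-led barcodes were used to gauge the background of Apoe. Whether it came from free RNA in the droplets or from another source was not tested. The 68 rod-led barcodes of day 0, which should lack the gene, had a median Apoe share of 0.0942%, near the 0.131% of all 255 myeloid cells of that day. At day 7 the 7 rod-led barcodes had a median of 1.69% and myeloid cells 6.62%, and at day 20 the 4 rod-led barcodes had 0.939% and myeloid cells 2.02%. Thinned to 500 UMIs a cell, 54.9% ± 8.02 of myeloid cells had an Apoe UMI at day 0 and 99.9% and 99.6% did at days 7 and 20, but 46.5% of 57 rod-led barcodes at day 0 and 99.3% of 8 after light did too (median depths before thinning, 1199 UMIs against 1260 at day 0 and 1052 against 1514 after light). After light both shares were near 100%, so this comparison could not show a difference. In the dark the myeloid libraries stood at 59.0%, 45.7% and 60.1%, while the rod-led barcodes were pooled over libraries. Whether the dark share lies above background was not tested. None of the 8 rod-led barcodes after light came from replicate 3 of either day. The 21 barcodes led by Müller glia and astrocyte markers after light had a median Apoe share of 2.27%, and myeloid cells of the same days 5.56%. At day 0 the order was the other way, with 0.683% in 5 such barcodes and 0.131% in myeloid cells. Müller and astrocyte markers summed to 842 to 1629 CPM in the day 0 libraries, 490 to 3522 at day 7 and 630 to 2845 at day 20, with all 12 of the list detected, and their part in the Apoe change was not tested.

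Apoc1, which sits beside Apoe and codes for a small apolipoprotein that slows lipoprotein uptake, was all but absent in the dark. It had 0, 0 and 1 UMIs in the day 0 libraries, 138, 55 and 13 at day 7, and 7, 6 and 2 at day 20. This was 497, 538 and 636 CPM at day 7 and 89.0, 37.8 and 50.3 CPM at day 20, so the 3 days did not overlap at all. A non-overlap between days 0 and 7 was found for 37.6% of all tested genes, between days 0 and 20 for 25.1% and between days 7 and 20 for 18.7%. Over all cells of a day the ratio of day 7 to day 0 was 231 (95% counting interval 41.1 to 9182), and that of day 20 to day 0 was 24.3 (3.74 to 1025). These intervals cover counting error only. The test called Apoc1 at day 7 (adjusted p = 3.34e-06 from edgeR), at day 20 against day 0 (adjusted p = 0.0147 from edgeR) and between days 7 and 20, where it fell by 3.39 on the log2 scale (standard error 0.46, adjusted p = 0.000725 from edgeR). The call at day 20 against day 0 was lost without day 0 replicate 1 (adjusted p = 0.0710 from edgeR), day 0 replicate 2 (0.0673) or day 20 replicate 1 (0.0539). The single day 0 UMI lay in a cell of replicate 3 with 17% Apoe and 4.95% MHCII UMIs.

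The ratio of Apoc1 to Apoe was lower at day 20 than at day 7. Per 1000 Apoe UMIs, the day 7 libraries held 6.58, 6.0 and 5.10 Apoc1 UMIs and the day 20 libraries 1.88, 1.07 and 0.557. All 3 day 7 values lay above all 3 day 20 values, with means of 5.90 ± 0.744 and 1.17 ± 0.669 (± SD, n = 3) and an exact permutation p of 0.1 for the difference of -4.73, again the smallest possible. In CPM, 18.7% of all tested genes had no overlap between days 7 and 20. For ratios to Apoe that share was not computed. Apoc1 per Apoe is a ratio within a library and so does not depend on scaling. In the deposited libraries, where barcodes are shared, the difference was -2.73. At day 7 the 206 Apoc1 UMIs were spread over 70 of 285 cells, with 8.74% of them in the top cell. At day 20 the 15 UMIs lay in 10 of 198 cells, and 1 cell of replicate 1 held 5 of them, out of the 7 of that library. Thinned to 500 UMIs, 0.627% of dark cells, 16.5% ± 2.76 of day 7 cells and 2.97% ± 0.321 of day 20 cells had an Apoc1 UMI, against 1.56% of the 8 rod-led barcodes after light.

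**Figure D4:**
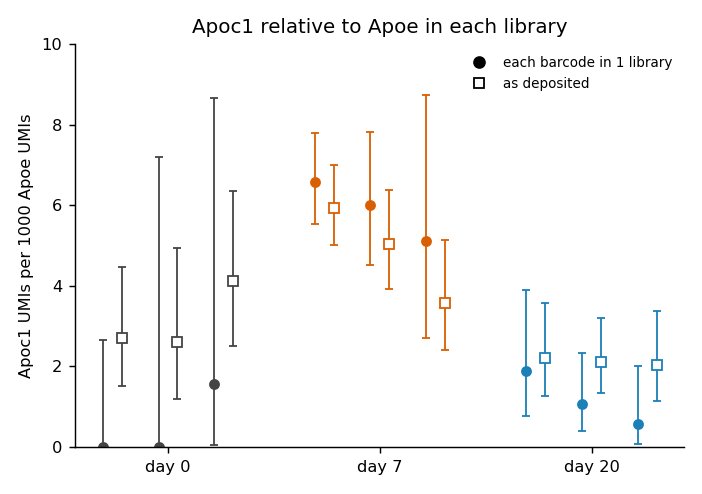
Apoc1 UMIs per 1000 Apoe UMIs (vertical axis, linear) in each library of day 0, 7 and 20, with each barcode in 1 library (filled circles) and in the libraries as deposited (open squares); bars are 95% counting intervals. The day 7 circles lie between 5.10 and 6.58 and the day 20 circles between 0.557 and 1.88.

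Apoc2, the activator of lipoprotein lipase, was at the limit of detection, with 2, 1 and 1 UMIs in the day 7 libraries and 0 UMIs in each library of days 0 and 20. A count of 0 allows up to 3 UMIs, which is 15.4 to 32.8 CPM in the dark libraries, so no change could be shown at this depth. The symbol belongs to a pair of identifiers in the tables. The other one (ENSMUSG00000109350, a readthrough gene) had 0 UMIs, and it overlaps Apoc2 over 6358 of 6363 bases, so reads of that stretch may have been left uncounted.

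Lpl (ENSMUSG00000015568, chromosome 8, 68880491 to 68907448, plus strand), the secreted lipase that frees fatty acids from lipoproteins, showed no change that passed. It had 8, 39 and 0 UMIs in the day 0 libraries, 20, 8 and 3 at day 7 and 2, 6 and 4 at day 20. Of the 47 day 0 UMIs, 36 lay in 1 cell of replicate 2 that held 5920 UMIs in all, so the dark level is largely that of 1 cell. The libraries ran from 0 to 200.2 CPM at day 0, from 72.0 to 147 at day 7 and from 25.4 to 101 at day 20. The log2 change was -0.08 at day 7 (adjusted p = 0.948 from edgeR) and -1.09 at day 20 (adjusted p = 0.573 from edgeR). Outside that cell there were 11 UMIs in the dark, 31 at day 7 and 12 at day 20.

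Fabp5 (ENSMUSG00000027533, chromosome 3, 10012548 to 10016607, plus strand), the cytoplasmic fatty acid carrier, rose at day 7 with 1 library standing apart. It had 6, 0 and 5 UMIs in the dark, 180, 56 and 1 at day 7, and 6, 20 and 3 at day 20. The first 2 day 7 libraries reached 648 and 547 CPM, whereas replicate 3, the library of 17 cells, had 48.9 CPM (95% Poisson interval 1.24 to 273) and lay within the dark range of 0 to 54.7 CPM. Fabp5 rose at day 7 by 4.31 on the log2 scale (standard error 0.69, adjusted p = 0.000299 from edgeR) and in each of the 9 fits without 1 library. At day 20 its libraries stood at 76.3, 126 and 75.5 CPM, all above those of day 0, yet the change of 1.87 did not pass (adjusted p = 0.269 from edgeR). A lack of overlap between days 0 and 20 was found for 25.1% of all tested genes. From day 7 to day 20 it fell by 2.44 (adjusted p = 0.0345 from edgeR), but that call held in only 4 of the 9 fits without 1 library. It was lost without day 0 replicate 1, without day 7 replicate 1 or 2, and without day 20 replicate 1 or 2 (adjusted p from edgeR 0.0539 to 0.203). Thinned to 500 UMIs, 1.60% of dark cells and 14.2% ± 6.81 of day 7 cells had a Fabp5 UMI, against 2.10% of rod-led barcodes in the dark and 1.56% after light, so the dark share is at background.

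Npc2 (ENSMUSG00000021242, chromosome 12, 84754562 to 84773152, minus strand), the soluble cholesterol carrier of the lysosome, was well counted on every day and moved little. It stood at 1389, 1191 and 1082 CPM in the dark, 1923, 2288 and 1419 at day 7, and 1743, 1688 and 1536 at day 20. All libraries after light lay above all dark ones, though the lowest of them, day 7 replicate 3 at 1419 CPM, was next to the highest dark library. A lack of overlap between the dark libraries and all 6 after light was found for 15.2% of all tested genes. The log2 change was 0.75 at day 7 (standard error 0.25, adjusted p = 0.0407 from edgeR) and 0.40 at day 20 (adjusted p = 0.474 from edgeR). The day 7 call passed in only 2 of the 9 fits without 1 library, those without day 7 replicate 3 or day 20 replicate 3, and was lost without any of the other 7 (adjusted p from edgeR 0.0610 to 0.242). It was also lost with scaling by library size alone (0.64, adjusted p = 0.0696 from edgeR), without the myeloid rule (0.93, adjusted p = 0.120), with no filter on low counts (0.80, adjusted p = 0.545) and in the libraries as deposited (0.45, adjusted p = 0.149). Without the myeloid rule the libraries overlapped too, with day 7 replicate 3 at 1039 CPM and day 0 replicate 1 at 1189 CPM. Npc2 UMIs were found in 180 of 255 dark cells, 229 of 285 day 7 cells and 143 of 198 day 20 cells. After thinning, 48.7%, 53.1% and 53.2% of cells had one, against 10.8% of rod-led barcodes in the dark and 6.40% after light, so the signal is above that of rod-led barcodes. Over the 9 genes, the exact permutation test of this share gave 1 unadjusted p under 0.05, that of Apoe at 0.0119. That is the smallest p of the design and comes to 0.107 after adjustment over 9 genes, so a single gene could not pass there.

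The cholesterol exporters and the acid lipase were sparse. Abca1 (ENSMUSG00000015243, chromosome 4, 53030787 to 53159895, minus strand), whose promoter is printed above, had 5, 4 and 1 UMIs in the dark, 8, 3 and 4 at day 7, and 0, 3 and 1 at day 20. The ratio of day 7 to day 0 was 1.68 (95% counting interval 0.708 to 4.19) and that of day 20 to day 0 was 0.649 (0.149 to 2.25), so neither direction could be told at this depth. Abcg1 (ENSMUSG00000024030, chromosome 17, 31057675 to 31117988, plus strand) had 0, 1 and 0 UMIs in the dark, 2, 4 and 0 at day 7, and 3, 6 and 2 at day 20. It was the one gene of the 9 with its highest mean CPM at day 20, where it was at 38.2, 37.8 and 50.3 CPM against 0 to 5.13 in the dark, a ratio of 17.9 (2.59 to 768) from 11 UMIs against 1. Day 7 stood at 7.20, 39.1 and 0 CPM, so days 7 and 20 overlapped. The ratio of day 20 to day 7 was 2.65 (0.898 to 8.72), so a difference between these days could not be told. The 11 UMIs of day 20 came from 10 cells. With no filter on low counts the change from day 0 to day 20 did not pass (3.68, adjusted p = 0.277 from edgeR). Thinned to 500 UMIs, 0.0456% of dark cells and 0.759% of day 20 cells had an Abcg1 UMI. Of rod-led barcodes, 2.17% of 57 did in the dark and 0% of 8 after light. These set no common background for Abcg1, so whether the day 20 share lies above one could not be told. Without the myeloid rule the dark libraries held 1, 1 and 2 UMIs (4.79 to 13.4 CPM) and those of day 20 stood at 37.3 to 43.7 CPM, so the ratio rests on very few dark UMIs. Lipa (ENSMUSG00000024781, chromosome 19, 34492318 to 34527474, minus strand) had 9, 8 and 1 UMIs in the dark, 21, 8 and 1 at day 7, and 4, 8 and 0 at day 20. Its ratio was 1.87 (1.01 to 3.57) at day 7 and 1.08 (0.475 to 2.37) at day 20, and its libraries overlapped throughout.

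Keeping each barcode in 1 library decided how large these changes were. In the libraries as deposited, entries whose barcode had more UMIs in another library held 81.6% of the day 0 Apoe UMIs, 97.7% of those of Apoc1 and 88.5% of those of Fabp5. For Apoe, 80.3% of the day 0 UMIs were under barcodes whose top library was of another day. The same share was 44.1% for Npc2 (33.2% with a top library of another day). At day 7 it was 30.1% for Apoe and 16.3% for Apoc1. As deposited, Apoe still rose at day 7, by 1.75 (standard error 0.24, adjusted p = 0.00407 from edgeR), as did Apoc1, by 2.47 (standard error 0.36, adjusted p = 0.00407), and Fabp5, by 1.76 (standard error 0.28, adjusted p = 0.00609). At day 20 none of the 6 members with counts enough to be tested there passed: Apoe was at 1.28 (adjusted p = 0.0755 from edgeR) and Apoc1 at 0.69 (adjusted p = 0.707).

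MHC class II genes moved with the same libraries, so the lipid genes were also compared between cells within a library. The MHCII list of 4 genes summed to 655 to 2110 CPM in the dark libraries, 10069 to 40405 at day 7 and 5932 to 14792 at day 20, while the homeostatic microglia list fell from 6646 to 7890 CPM in the dark to 1534 to 1810 and 3273 to 4855 CPM. Only cells with 500 or more UMIs were classed. MHCII-rich cells were those with at least 0.4% of their UMIs from the list. In the 4 libraries after light with 10 or more cells of each class (129 rich and 235 poor cells, 60 of them between 0.3% and 0.5%), Apoe differed by 0.80 (standard error 0.31, adjusted p = 0.464 from edgeR with the library as a block) and Npc2 by 0.07 (adjusted p = 0.970). Neither passed, where 0.893% of the 672 tested genes did. The other 7 members did not pass the filter on low counts there.

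Within libraries the MHCII classes differed by day for Apoe. In the 3 day 7 libraries the ratio of Apoe CPM in rich to poor cells was 1.08, 0.855 and 0.954, and in the 3 day 20 libraries it was 2.46, 3.06 and 3.30. The days did not overlap, and the mean log2 ratio was higher at day 20 by 1.61 (exact permutation p = 0.1, the smallest possible, and 0.15 after adjustment over 3 genes). In poor cells Apoe stood at 72919 to 138893 CPM at day 7 and 27577 to 56677 CPM at day 20, and in rich cells at 78478 to 132490 and 84461 to 187048 CPM, so the poor cells of the days did not overlap and the rich cells did. With all cells summed, 18.7% of tested genes had no overlap between days 7 and 20. That share was not computed for the classes or for their ratios. This comparison by day was chosen after the values were seen. The third library of each day had under 10 cells in a class. With MHCII-poor cells alone summed over each library, Apoe rose by 4.16 at day 7 (standard error 0.38, adjusted p = 2.55e-06 from edgeR) and by 2.89 at day 20 (standard error 0.36, adjusted p = 0.000570), and fell by 1.27 from day 7 to day 20 (adjusted p = 0.0274 from edgeR), a call that all cells together did not give. The fit of MHCII-poor cells called 109 of 1249 tested genes between days 7 and 20, where that of all cells called 64 of 1451. It also left out cells with too few UMIs to be classed, so it differs in depth as well. Which of these differences gave the Apoe call was not tested. In the MHCII-poor cells Apoc1 rose at day 7 (adjusted p = 4.35e-07 from edgeR), as did Fabp5, by 4.65 (adjusted p = 5.73e-05). The rise of Npc2 there, 0.72, missed the threshold (adjusted p = 0.0534). Apoc1 and Fabp5 at day 7 leaned to the poor cells. Apoc1 had 23 UMIs in rich and 108 in poor cells of replicate 1, and 2 and 53 in those of replicate 2. Fabp5 had 49 and 129 UMIs (403 and 880 CPM), and 1 and 55 (46.1 and 706 CPM), in the same classes. Replicate 1 had 80 rich and 92 poor cells, and replicate 2 had 18 and 50. In replicate 1, 1 poor cell near the limit, with 0.329% MHCII UMIs, held 32 of the 129 Fabp5 UMIs. Apoc1 and Fabp5 had counts enough to be tested only in some alternative fits. Leaving out day 20 replicate 1 left 3 libraries, where 18 of 1028 tested genes passed. There both passed as lower in rich cells (-1.91 with adjusted p = 0.0224 for Apoc1 and -1.65 with adjusted p = 0.0418 for Fabp5, edgeR). Neither passed without day 20 replicate 2 (-1.90 with adjusted p = 0.261 and -1.74 with adjusted p = 0.347) or with a limit of 0.2% for rich cells (-1.12 with adjusted p = 0.768 and -0.88 with adjusted p = 0.589), and Fabp5 did not without day 7 replicate 2 (-1.39 with adjusted p = 0.780, edgeR).

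**Figure D5:**
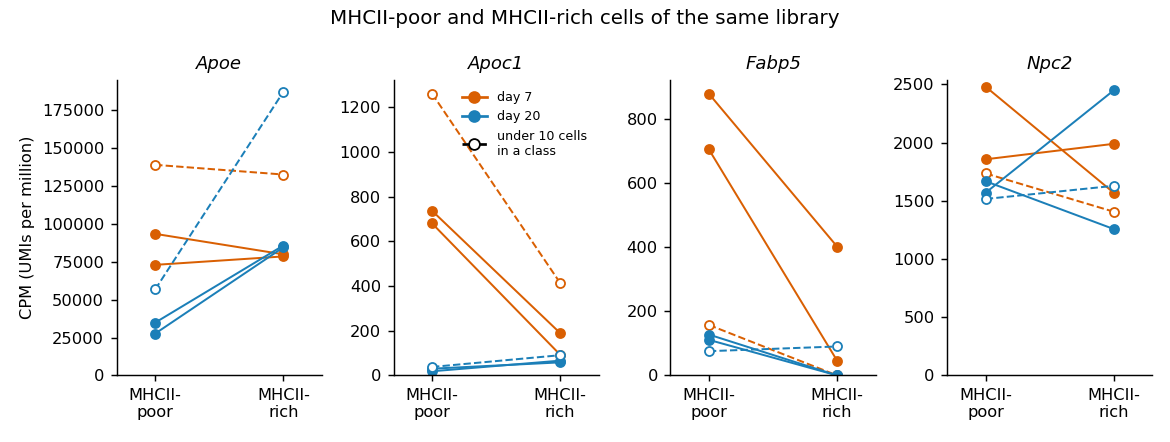
CPM of 4 genes (vertical axes, linear and from 0) in the MHCII-poor and MHCII-rich cells of each library of day 7 (orange) and day 20 (blue), with a line for each library; open points on dashed lines are libraries with under 10 cells in a class. Apoe is level or nearly so at day 7 and 2.46 to 3.30 times higher in rich cells at day 20, while Apoc1 at day 7 is lower in rich cells.

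Npc2 was somewhat higher in the Apoe-rich cells after light when Apoe UMIs were left out of the totals. All CPM of this comparison, also those of the marker lists, were taken that way, which raises values most in the Apoe-rich cells. In the 5 libraries after light with 10 or more cells on each side of 5% Apoe (210 and 181 cells), Npc2 stood at 1828 to 2767 CPM in the cells at or over 5% and at 1240 to 2097 CPM in the others, so the ranges overlapped, and it was higher in the Apoe-rich cells of all 5. In day 20 replicate 3 it was at 1828 CPM against 1570 CPM, from 34 and 24 UMIs. Of 1131 genes found in at least 10% of these cells, 5.75% were higher in the Apoe-rich cells of all 5. Lpl and Abca1 were higher in 4 of the 5, Apoc1, Lipa and Abcg1 in 3, and Fabp5 and Apoc2 in 2. A library at 0 on both sides counted as not higher. Several of these rest on few UMIs in the Apoe-rich and other cells: 12 and 3 for Abca1, 4 and 9 for Abcg1, 3 and 0 for Apoc2. The marker lists went differently on the 2 days. At day 20 the homeostatic list stood at 1716 to 2176 CPM in the Apoe-rich cells and at 5300 to 6030 CPM in the others, while in both day 7 libraries it was higher in the Apoe-rich cells (1808 against 1464 and 2170 against 1134 CPM). The MHCII list was higher in the Apoe-rich cells of all 3 day 20 libraries, at 19208 to 33184 CPM against 720 to 9758 CPM, and at day 7 it was lower in one library (22532 against 25932 CPM) and higher in the other (13329 against 7879 CPM). Perivascular macrophage markers were higher in the Apoe-rich cells of 4 of the 5 libraries, from only 13 UMIs against 4. As a description over single cells, the genes whose level went most with that of Apoe within a library, over 8 libraries that include the 3 dark ones (721 cells, 1140 genes compared), were Lyz2, a macrophage lysozyme (mean Pearson r of 0.42, from 0.08 to 0.60 by library), Cd74, the MHCII invariant chain (0.36, from -0.02 to 0.71), H2-Aa (0.29, from -0.01 to 0.54), Ctsb, a lysosomal protease (0.27, from -0.00 to 0.55), and H2-D1 (0.27, from 0.04 to 0.54). In the 5 libraries after light alone, the mean r was 0.55 for Lyz2, 0.32 for Cd74, 0.26 for H2-Aa, 0.39 for Ctsb and 0.35 for H2-D1. Among the members the mean r with Apoe was 0.15 for Apoc1, 0.10 for Npc2 (from -0.04 to 0.27), 0.09 for Abca1 and Fabp5 and under 0.07 for the others. The cells of a library share its free RNA and differ in depth, and the weak values in sparse genes are no finding.

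Few of the other lipid genes could be measured. Of 90 further genes in 6 lists, 16 were tested, 10 of them lysosomal, and 0 of the 12 lipid droplet genes and 0 of the 17 cholesterol synthesis genes had counts enough. At day 7, edgeR called 1 of the 16 as higher and 0 as lower, DESeq2 also called 1, and in edgeR 2 had an unadjusted p under 0.05. The 1 of 16 called higher is near the 8.82% of all tested genes that passed as higher. In either direction 24.7% of all tested genes passed, with 231 of the 1451 lower. At day 20 against day 0 both edgeR and DESeq2 called 0 of the 16, with 2 at an unadjusted p under 0.05 in edgeR, and at day 20 against day 7 both called 0, with 0 at an unadjusted p under 0.05. The median change of the 16 was 0.05 at day 7, beside -0.08 for all genes tested, and -0.08 at day 20, beside -0.05. Axl, a receptor for dying cells, rose at day 7 by 1.59 (standard error 0.46, adjusted p = 0.0202 from edgeR), from 55.1 to 98.4 CPM in the dark libraries to 108 to 440 CPM. For the mean of days 7 and 20 edgeR called 2 of the 16, both higher, where 4.14% of all genes were, and DESeq2 called 1. Axl rose there by 1.32 (adjusted p = 0.0330 from edgeR and 0.0472 from DESeq2). Dbi, which binds acyl-CoA, was at 1.17 and passed in edgeR (adjusted p = 0.0296) but not in DESeq2 (adjusted p = 0.110).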

How the data were processed

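Retinal CD45+ CD11b+ cells of female Arr1-/- mice were profiled with 10x 3′ version 2 chemistry, 3 libraries at each of 0, 7 and 20 days of light. The treatment labels give days, the titles the same figures as hours, and days were used. The deposited values are the authors' UMI counts per gene and barcode, not normalized, made with Cell Ranger on mm10 per the labels (version not given in the sources used here). Each barcode was kept in its library of most UMIs; barcodes with at least 200 detected genes, under 10% mitochondrial UMIs, at least 3 myeloid marker UMIs and more of these than of each of 8 other marker lists were summed by library. No doublet caller was run. Day comparisons used edgeR 4.0.16 (quasi-likelihood test, TMM, default filter on low counts, all 9 libraries in 1 fit, Benjamini-Hochberg adjustment over all genes at 0.05), MHCII classes the same with the library as a block, and shares two-sided exact permutation tests over libraries in scipy 1.17.1. Scripts were tested on simulated data. Standard errors given with edgeR changes are the absolute log2 change divided by the square root of the F statistic. Counting intervals are exact at 95%. All 9 members are named; of the lipid lists, genes past the threshold are. Of these lists, 1 gene is not reported here and was left out of the counts. Of the gene identifiers, 98.7% are in GENCODE M21. The members and lists were chosen with earlier results of these data known. DESeq2 1.42.0, other scalings and filters, the libraries as deposited and leaving out each library were tried as alternatives.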

Additional observations from a re-analysis of the deposited data

Results flagged for a closer look

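Apoc1 differed in direction between days in the MHCII classes. In all 3 day 7 libraries it was lower in MHCII-rich than in MHCII-poor cells, with CPM ratios of 0.257, 0.135 and 0.328, and in all 3 day 20 libraries it was higher, with ratios of 3.57, 1.94 and 2.39. The mean log2 ratio differed by 3.50 between the days (exact permutation p = 0.1, the smallest that 3 libraries against 3 can give, and 0.15 after adjustment over 3 genes). The classes hold only cells with 500 or more UMIs. This leaves out a day 20 replicate 1 cell of 448 UMIs, with 5 Apoc1 UMIs and 2.90% of its UMIs from the MHCII list. Each day 20 ratio rests on 1 UMI in the rich cells, and its 95% counting interval spans 1 (for replicate 1, 0.0455 to 280), so the direction at day 20 could not be told at this depth.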

How the results depend on the processing

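The rises of Apoe, Apoc1 and Fabp5 at day 7 and for the mean of days 7 and 20 passed under every alternative run, and so did that of Apoe at day 20, except in the libraries as deposited. With those, edgeR called 0 members at day 20 against day 0 and 0 at day 20 against day 7 (2 and 3 at an unadjusted p under 0.05), in place of 2 and 2. Without the myeloid rule, 1 was called between days 7 and 20. The call on Npc2 at day 7 was lost with scaling by library size alone, with no filter on low counts, without the myeloid rule, in MHCII-poor cells alone and in the libraries as deposited (adjusted p from edgeR 0.0534 to 0.545). Replicate numbers were shared by the days. Deviations of same-numbered libraries from their day correlated at -0.02 to 0.13 (median 0.01, 1 of 9 over 0.1). Those of different-numbered libraries correlated at -0.12 to 0.08 (median -0.02, 0 of 18 over 0.1). Replicate 3 had the fewest cells on every day (55, 17 and 32) and the highest Müller and astrocyte CPM (1629, 3522 and 2845). Beyond a fit with a replicate block, a shared effect of the replicate number was not tested. With the replicate block, 1 member was called between days 7 and 20, and 4, 2 and 3 in the other comparisons. Leaving out 1 library gave 1 to 2 members at day 20 against day 0, 1 to 2 between days 7 and 20 and 0 to 2 between MHCII classes. Over all genes, the deposited libraries gave 68, 0, 0 and 61 calls (583, 220, 168 and 454 unadjusted) in place of 359, 52, 64 and 272, and the counts without the myeloid rule were 183 at day 7, 11 between days 7 and 20 and 155 for the mean. MHCII-poor cells alone, an alternative chosen after seeing the data, gave 25 calls at day 20 against day 0 and 109 between days 7 and 20. Leaving out 1 library gave 191 to 528, 26 to 46, 14 to 94 and 161 to 433 calls. MHCII classes gave 6 calls and DESeq2 10 (4 to 18 without 1 library). Depth limits Apoc2, Abca1, Abcg1 and Lipa to counts, and 3 UMIs, the limit a count of 0 allows, is 10.8 to 147 CPM by library.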
